A study of Mus musculus with 5 samples.

Results

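Calprotectin and neutrophil granule genes are a set of 10 mouse genes, S100a8, S100a9, Lcn2, Mmp8, Mmp9, Ngp, Camp, Ltf, Prtn3 and Elane. The set was listed by symbol, with earlier results of these data known. They were found by gene symbol on an Affymetrix MG-U74Av2 array, where 12 of the 10833 probe sets with 1 gene symbol named them, 2 each for Lcn2 and Mmp9 and 1 each for the others. Signals were read in RNA of mouse peritoneal macrophages on 5 arrays, 1 from untreated (naive) animals, 2 from mice given poly IC, and 2 from mice given poly IC plus ethanol by mouth. Poly IC (polyinosinic polycytidylic acid) mimics the double-stranded RNA of viruses, and the series asks how acute ethanol alters the genes it induces. The 4 treated samples were pools of female C57Bl/6 x C3H F1 mice aged 12 weeks. The poly IC dose was 0.1 mg per mouse in every treated pool but the first poly IC pool, whose label gives no dose, and ethanol was given at 6 g per kg. The label of the naive sample gives no strain, sex, age or pool, there was no group with ethanol and no poly IC, and how many mice made up a pool is not given in the sources used here. The p-values below therefore rest on the spread between the pools of the treated groups, moderated toward that of other genes. The single naive array shows no spread of its own and was assumed to vary like the treated arrays. Wherever the naive array is used, the animals' strain, sex and age cannot be told apart from treatment.

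Neutrophils carry their antimicrobial proteins in the cytosol and in granules that are filled in sequence as the cell matures. Azurophil (primary) granules hold serine proteases such as neutrophil elastase (Elane) and proteinase 3 (Prtn3), specific (secondary) granules hold lactoferrin (Ltf), cathelicidin (Camp), neutrophilic granule protein (Ngp), lipocalin 2 (Lcn2) and collagenase (Mmp8), and gelatinase granules hold Mmp9. Most granule transcripts are made by precursors in the bone marrow and decline as the cell matures, whereas S100a8 and S100a9, the subunits of calprotectin, are abundant in circulating neutrophils and monocytes. Activated macrophages can also make Lcn2 and Mmp9, and this outline does not list every cell that makes S100a8, S100a9 or the other members. In bulk RNA such as this, fewer cells of a type and less RNA per cell cannot be told apart.

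Each array was scaled by the authors to a common target, and median signals lay between 769 and 902. The brightest of 19 control probe sets for bacterial and yeast transcripts that were not stated to be added gave 299.6 to 443.8 by array, and a group mean below it is treated here as a bound. The 18S ribosomal RNA signal, read at its 3' end, was 7277 on the naive array, 5113 and 66548 in poly IC pools 1 and 2, and 8225 and 19415 in ethanol pools 1 and 2. Ratios of 3' to 5' actin signal lay between 1.04 and 1.15. Differences below are log2 differences on the log2(signal + 250) scale from a limma fit over 5581 genes, which understates the change of dim genes, and a gene is called at an adjusted p under 0.05. The low-signal filter (mean over the 5 arrays of at least 513) was passed by 10 of the 12 probe sets, which left 9 genes tested. Elane, with a mean of 512, and the dimmer Mmp9 probe set did not pass, and Ngp, Ltf and Mmp8 passed through their poly IC signals.

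Poly IC against naive gave 5 rises and 1 fall among the 9 tested genes, where 31.8% of all genes tested were called, 11.7% higher and 20.1% lower. S100a8, S100a9, Lcn2, Mmp8 and Camp rose, and Prtn3 fell. Mmp9, Ngp and Ltf did not pass the test. Without the filter, 4 of the 10 genes rose and 1 fell, where 18.3% of 8251 genes were called, 6.92% higher and 11.4% lower. Poly IC plus ethanol against poly IC gave 5 falls and no rise, where 10.6% of all genes were called, 5.77% higher and 4.8% lower: S100a8, S100a9, Lcn2, Mmp8 and Mmp9 fell. Without the filter all 10 genes were tested and 3 of them fell (S100a8, S100a9 and Mmp8), where 3.93% of 8251 genes were called, 2.05% higher and 1.88% lower. Without poly IC pool 1 the falls with ethanol numbered 2, S100a8 and S100a9, where 87 of all 5581 genes were called lower, and without poly IC pool 2 they numbered 5, with Ngp in place of Lcn2, where 64 were. Wherever 1 pool is left out, the pool that remains is assumed to vary as the other treated group does.

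**Figure D1:**
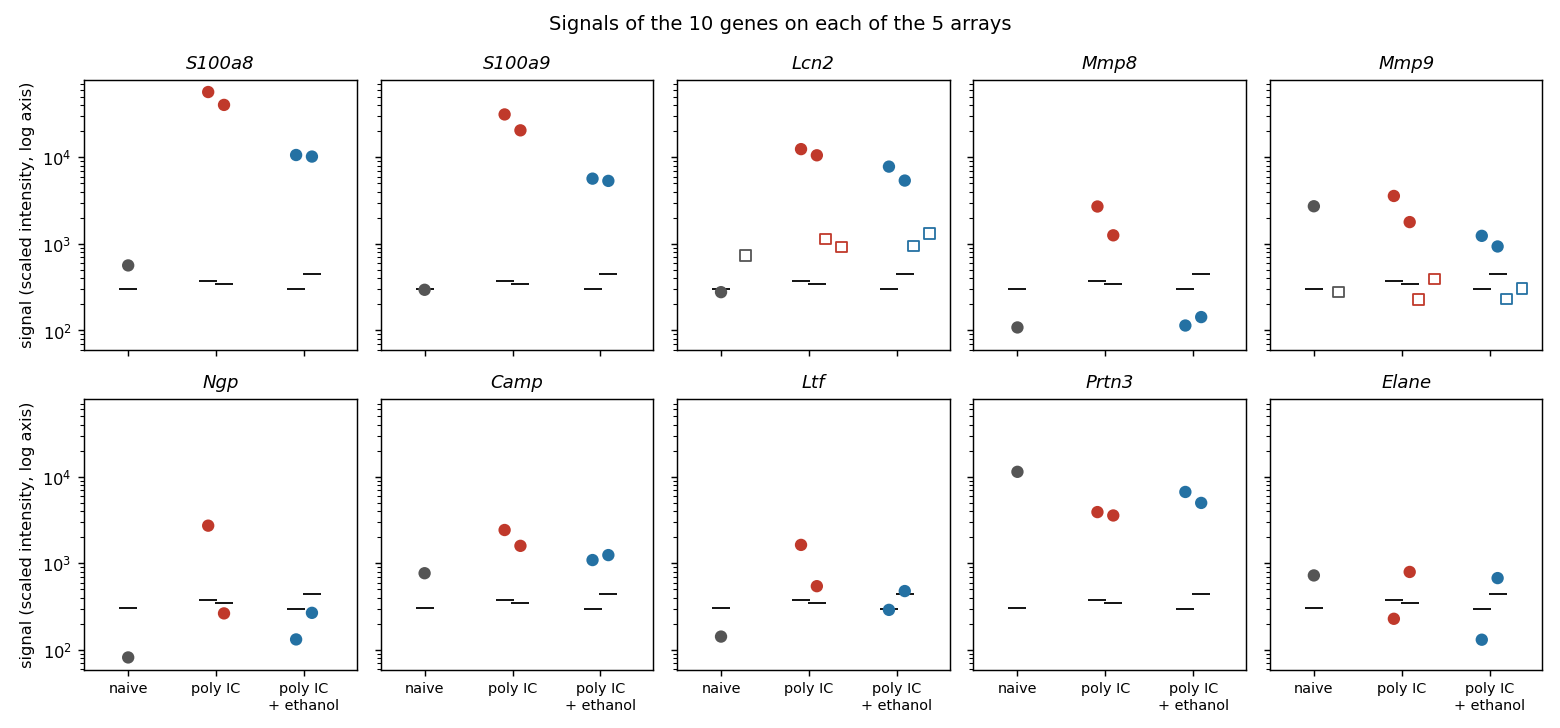
Signal of each of the 10 genes (log axis, scaled intensity) on the naive array (grey), the poly IC pools (red) and the poly IC plus ethanol pools (blue); within a group pool 1 is on the left, filled circles are the brightest probe set of a gene, open squares the other probe set of Lcn2 and Mmp9, and short black bars the brightest unspiked control of that array. S100a8 and S100a9 sit at 10209 to 10641 and 5346 to 5676 with ethanol, between naive and poly IC, and Mmp8 falls back under the control with ethanol, whereas Prtn3 is highest on the naive array.

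The calprotectin genes S100a8 and S100a9, neighbours on chromosome 3, had the largest rises of the set. Their proteins form a calcium- and zinc-binding heterodimer that starves microbes of metal and signals through Tlr4. S100a8 gave 564 on the naive array, 56818 and 40341 in poly IC pools 1 and 2, and 10641 and 10209 in ethanol pools 1 and 2. S100a9 was 295 on the naive array, 31307 and 20508 with poly IC, and 5676 and 5346 in the ethanol pools. The 3 groups did not overlap for either gene. With poly IC S100a8 was 86.1-fold higher than in naive cells (log2 difference 5.89, SE 0.21, adjusted p = 2.98e-08) and S100a9 at least 85.8-fold higher (5.55, SE 0.25, adjusted p = 1.71e-07). With ethanol S100a8 was 4.66-fold lower than with poly IC (48580 ± 11651 to 10425 ± 305, SD, n = 2 each, log2 difference -2.17, SE 0.17, adjusted p = 0.000205), and S100a9 4.70-fold lower (25908 ± 7636 to 5511 ± 234, -2.15, SE 0.20, adjusted p = 0.000451). Among the 5480 genes whose means lay above the unspiked control in both treated groups, these were the 2nd and 3rd most negative differences. The ethanol pools were still above the naive array, S100a8 18.5-fold (log2 difference 3.71, SE 0.21, adjusted p = 1.41e-06) and S100a9 at least 18.3-fold (3.40, SE 0.25, adjusted p = 7.99e-06). Both genes kept their calls in all 3 comparisons under every alternative that was run.

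The bases just upstream of these genes are shown with those of Mmp8, which fell with them, and of Prtn3, which took the opposite course, because the members that moved together can be compared there. Sequences are the 250 bases before the gene start from RefSeq (assembly GRCm38.p6), which listed 9 of the 10 genes, all but Mmp9. Capitals mark 7- or 8-letter matches on either strand to TTGCNNAA, a form of the site of C/EBP factors, which drive granule genes, and to GAGGAAG, a form of the site of the myeloid factor PU.1.
S100a8, chr3:90668821-90669070, plus strand: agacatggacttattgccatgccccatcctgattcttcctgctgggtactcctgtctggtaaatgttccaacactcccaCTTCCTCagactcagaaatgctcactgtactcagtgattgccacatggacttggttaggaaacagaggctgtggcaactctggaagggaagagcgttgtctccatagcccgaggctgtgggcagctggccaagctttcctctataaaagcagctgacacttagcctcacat
S100a9, chr3:90695722-90695971, minus strand: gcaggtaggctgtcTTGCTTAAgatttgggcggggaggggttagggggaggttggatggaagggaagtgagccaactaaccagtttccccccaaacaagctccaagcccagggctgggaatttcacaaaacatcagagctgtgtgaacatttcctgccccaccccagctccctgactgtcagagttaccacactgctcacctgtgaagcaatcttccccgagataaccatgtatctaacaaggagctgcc
Mmp8, chr9:7558179-7558428, plus strand: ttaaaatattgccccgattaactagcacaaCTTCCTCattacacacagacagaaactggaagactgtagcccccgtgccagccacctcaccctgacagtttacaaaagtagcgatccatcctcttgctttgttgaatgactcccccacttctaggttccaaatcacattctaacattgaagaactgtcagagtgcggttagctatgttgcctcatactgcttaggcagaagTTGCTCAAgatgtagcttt
Prtn3, chr10:79879417-79879666, plus strand: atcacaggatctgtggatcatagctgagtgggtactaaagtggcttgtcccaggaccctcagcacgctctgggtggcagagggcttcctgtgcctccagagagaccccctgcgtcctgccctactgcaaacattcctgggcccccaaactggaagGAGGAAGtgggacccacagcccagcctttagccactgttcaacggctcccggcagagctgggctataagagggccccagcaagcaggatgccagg
TTGCNNAA was found upstream of 5 of the 9 genes (S100a9, Lcn2, Mmp8, Ngp and Ltf) and, in windows of that length, of 10.8% of all 27025 genes listed. GAGGAAG was found upstream of 5 as well (S100a8, Lcn2, Mmp8, Prtn3 and Elane) and of 12.0% of all genes listed. Of the calprotectin pair, S100a8 had the second motif and S100a9 the first. The letters matched do not tell whether a factor binds there.

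Of the 5 specific granule genes, Lcn2, Mmp8 and Camp rose with poly IC, and Ltf and Ngp did not pass the test. Lcn2, which binds bacterial iron carriers, was 277 on the naive array, 12442 and 10560.3 with poly IC, and 7814 and 5391 in the ethanol pools. It rose at least 38.1-fold with poly IC (log2 difference 4.47, SE 0.24, adjusted p = 7.01e-07) and fell 1.74-fold with ethanol (-0.80, SE 0.20, adjusted p = 0.0328), to a level at least 21.9-fold above naive (3.68, SE 0.24, adjusted p = 4.23e-06). The 3 groups did not overlap. The fall of Lcn2 lost its call without either poly IC pool (-0.68 and -0.91, adjusted p = 0.220 and 0.133) and without ethanol pool 2 (-0.54, adjusted p = 0.0527), and its adjusted p ranged from 6.76e-05 to 0.245 over 12 alternatives. The other Lcn2 probe set, at 736 on the naive array, 1134 and 923 with poly IC, and 951 and 1326 in the ethanol pools, disagreed with the first. In a fit of all probe sets without the filter, its differences were 0.37 (SE 0.35, adjusted p = 0.583) with poly IC and 0.11 (SE 0.29, adjusted p = 0.909) with ethanol.

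Mmp8, the neutrophil collagenase, was seen clearly in the poly IC pools alone. Its signals were 108 on the naive array, 2704 and 1257 with poly IC, and 114 and 143 in the ethanol pools. The naive and ethanol signals lay below the unspiked control, so Mmp8 was at least 6.56-fold higher with poly IC than in naive cells (log2 difference 2.56, SE 0.52, adjusted p = 0.00439) and at least 5.33-fold lower with ethanol than with poly IC (-2.48, SE 0.42, adjusted p = 0.00676). Ethanol and naive gave no fold, with a fitted difference of 0.077 (adjusted p = 0.937). Without poly IC pool 1, both calls were lost (2.07, adjusted p = 0.0835, and -1.99, adjusted p = 0.144). Over the other alternatives they were kept.

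The other specific granule genes were Camp, Ltf and Ngp, of which Camp alone passed the test with poly IC. Camp, the precursor of the antimicrobial peptide CRAMP, was 770.3 on the naive array, 2431 and 1595 with poly IC, and 1093 and 1248 in the ethanol pools, so that no groups overlapped. It rose 2.61-fold with poly IC (log2 difference 1.12, SE 0.30, adjusted p = 0.0166), a call lost without poly IC pool 1 (0.85, adjusted p = 0.125) and without the filter (adjusted p = 0.0595). Its ethanol difference did not pass (-0.65, SE 0.24, adjusted p = 0.125). Ltf, the iron-binding lactoferrin, was 143 on the naive array, 1636 and 546 with poly IC, and 291 and 479 in the ethanol pools. Both poly IC pools were above both ethanol pools, and the naive array was lowest, but neither its poly IC difference (1.64, SE 0.57, adjusted p = 0.0529) nor its ethanol difference (-0.96, SE 0.47, adjusted p = 0.228) passed. Without poly IC pool 2, the lower one, the poly IC difference of Ltf was 2.26 and called, with the spread then taken from the ethanol pools. Without pool 1 it was 1.02 and not called. Leaving out ethanol pool 1 or pool 2 kept it at 1.64, since those arrays enter only the estimate of spread, and it was then called. Ngp, a cystatin-like protein of specific granules, was 82 on the naive array, 2730 (poly IC pool 1) and 265 (pool 2), and 132 and 269 with ethanol. Of these, poly IC pool 1 alone lay above the unspiked control of its array, so the groups overlapped between poly IC pool 2 and ethanol (1.90, SE 0.88, adjusted p = 0.130 for poly IC, and -1.48, SE 0.72, adjusted p = 0.229 for ethanol). Without poly IC pool 2, which leaves the 1 array that is high and takes the spread from the ethanol pools, the Ngp differences were called at 3.17 and -2.74. Without poly IC pool 1 they were 0.63 and -0.21 and not called. Leaving out ethanol pool 1 or pool 2 kept the poly IC difference of Ngp at 1.90 and changed only the estimate of spread, under which it was called.

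Mmp9, the gelatinase, was expressed in naive cells and took another course. Its brighter probe set gave 2723 on the naive array, 3580.3 and 1786 with poly IC, and 1239 and 934 in the ethanol pools. The poly IC pools stood on either side of the naive array, and the difference between them and naive was -0.09 (SE 0.35, adjusted p = 0.871). With ethanol the signal was 2.47-fold lower than with poly IC (2683 ± 1269 to 1087 ± 216, log2 difference -1.07, SE 0.29, adjusted p = 0.0423), and below the naive array (-1.16, SE 0.35, adjusted p = 0.0496). Both calls lay close to the threshold. The first was lost without poly IC pool 1 (-0.62, adjusted p = 0.296), and the adjusted p ranged from 0.000228 to 0.296 for the first and from 0.000357 to 0.137 for the second. The other Mmp9 probe set lay between 228 and 391 on the 5 arrays, with group means below the unspiked control, and gave no fold.

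The azurophil protease genes Prtn3 and Elane are neighbours on chromosome 10 and differed from the other members and from each other. Prtn3 was 11430 on the naive array, 3916 and 3579 with poly IC, and 6690 and 4998 in the ethanol pools. It was the one member with its highest signal in naive cells and with both ethanol pools above both poly IC pools. It fell 3.05-fold with poly IC (log2 difference -1.55, SE 0.22, adjusted p = 0.000518) and was 1.96-fold lower with ethanol than in naive cells (-0.95, SE 0.22, adjusted p = 0.0146). The second call was lost with eBayes without the trend (adjusted p = 0.0644). Ethanol against poly IC gave 0.60 (SE 0.18, adjusted p = 0.0618), which missed the threshold but passed without ethanol pool 2 (0.80, adjusted p = 0.00186) and with the pool number as a block (adjusted p = 0.0248). Elane was 726 on the naive array, 229 and 797 with poly IC, and 131 and 677 in the ethanol pools, low in pool 1 of either treatment and near the naive signal in pool 2. In the fit of all probe sets without the filter its differences were -0.46 (SE 0.68, adjusted p = 0.745) with poly IC and -0.25 (SE 0.55, adjusted p = 0.888) with ethanol. Mpo and Ctsg, which encode the azurophil proteins myeloperoxidase and cathepsin G, had group means below the unspiked control in all 3 groups, from 66 to 211 on the Ctsg probe set.

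**Figure D2:**
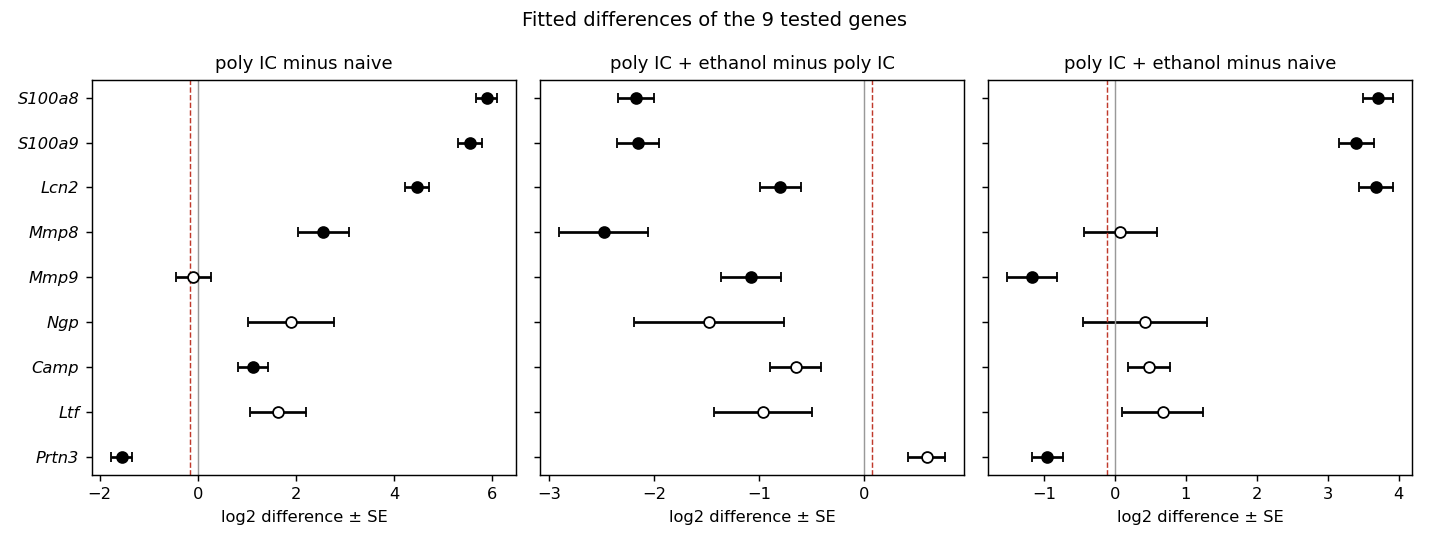
Fitted log2 differences (points) with their SE (bars) for the 9 tested genes in the 3 comparisons, which share arrays; filled points are called at an adjusted p under 0.05, and the dashed red line is the median of all genes tested. S100a8, S100a9 and Lcn2 stay well above 0 against naive with or without ethanol, Mmp8 is near 0 with ethanol against naive, and Prtn3 lies on the other side of 0 from S100a8 in each panel.

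Poly IC plus ethanol was also compared with naive. S100a8, S100a9 and Lcn2 rose and Mmp9 and Prtn3 fell, 5 of 9 tested genes, where 16.6% of all genes were called, 8.39% higher and 8.26% lower. For Mmp8, Ngp, Camp and Ltf the differences were 0.077, 0.42, 0.48 and 0.68, none of which passed. These values share the naive array with the poly IC comparison, in which the same 4 genes had differences of 2.56, 1.90, 1.12 and 1.64. Not passing against 1 naive array does not show that a gene was level with naive. For each of these 4 genes the naive array lay below all 4 treated arrays, though Mmp8 and Ngp had naive and ethanol means below the unspiked control. Over all probe sets, both ethanol arrays lay below both poly IC arrays in 7 of the 12 member probe sets, against 18.3% of all probe sets with 1 symbol, and above them in 1, against 27.6%. The naive array lay below all 4 treated arrays in 8 of the 12, against 26.4%, and above all of them in 1, against 30.8%.

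**Figure D3:**
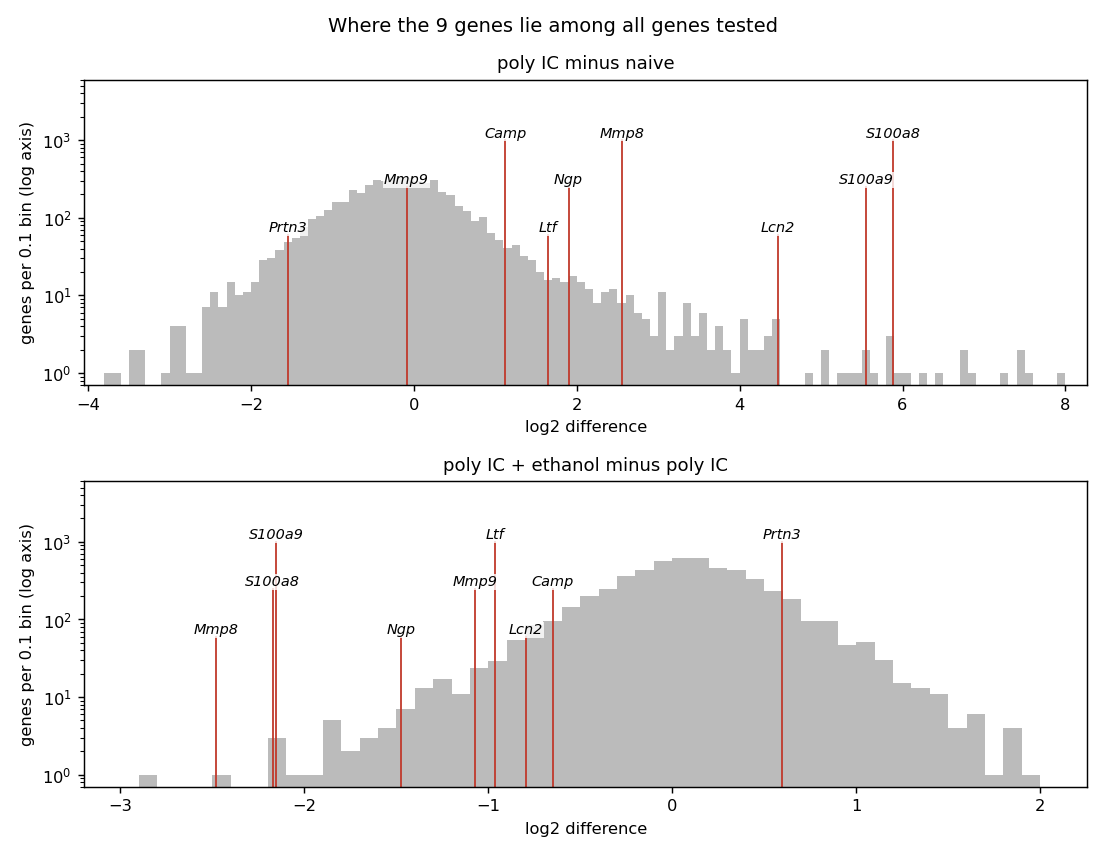
Histograms of the log2 differences of all 5581 genes tested (grey, log axis of counts) for poly IC minus naive and for poly IC plus ethanol minus poly IC, with the 9 tested members marked in red at their own values; the heights of the red lines have no meaning. S100a8 (5.89), S100a9 (5.55) and Lcn2 (4.47) lie in the right tail of the first panel, and Mmp8 (-2.48), S100a8 (-2.17) and S100a9 (-2.15) in the left tail of the second.

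The spread between pools of one group was itself uneven. Of the 10 genes, 9 were higher in poly IC pool 1 than in poly IC pool 2, where 53.6% of all genes were, and Elane was the exception. The log2 differences between these pools were 0.49 for S100a8, 0.60 for S100a9, 0.97 for Mmp8, 1.25 for Ltf and 2.53 for Ngp, and 0.12 for Prtn3, beside a median absolute difference of 0.173 over all genes. Between the ethanol pools, 5 of the 10 were higher in pool 1, where 47.7% of all genes were, and S100a8 and S100a9 differed by 0.058 and 0.083, under the median of 0.221, as did Mmp8 (-0.11) and Camp (-0.16). The other 6 differed by more, among them Mmp9 by 0.33 and Elane by -1.28, with 0.52 for Lcn2. The 18S ribosomal signal differed 5113 to 66548 between the same poly IC pools, in the direction opposite to the 9 genes, and its part in the result was not tested. Without poly IC pool 2 the fall of S100a8 with ethanol was -2.42 and without poly IC pool 1 it was -1.93, both called.

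**Figure D4:**
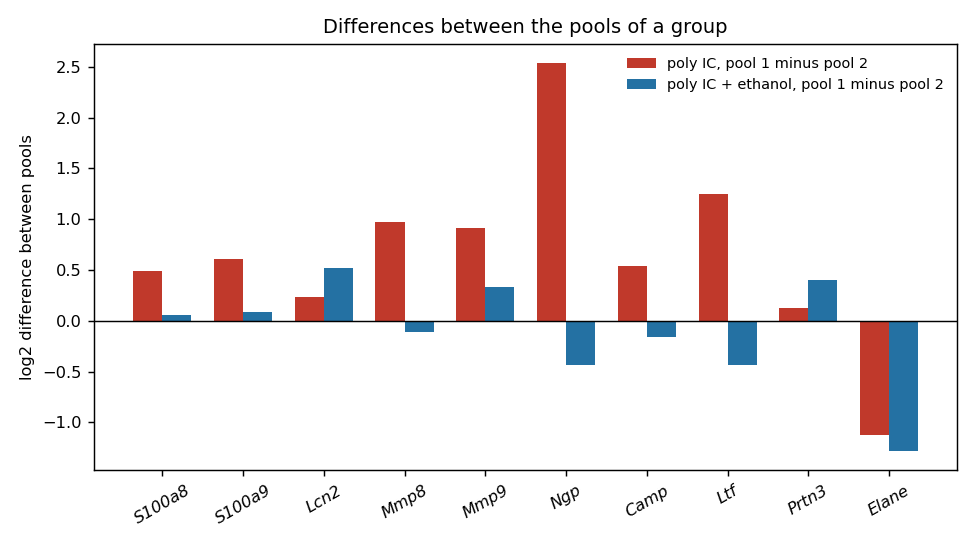
Log2 difference between pool 1 and pool 2 of the same treatment for each of the 10 genes (brightest probe set), for poly IC (red) and poly IC plus ethanol (blue), with bars starting at 0. The red bars are above 0 for every gene except Elane and reach 2.53 for Ngp, and the blue bars of S100a8 and S100a9 are close to 0.

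The members were not alike in their profiles over the 5 arrays. The distance between the centred log2 profiles of S100a8 and S100a9 was 0.30, that between Camp and Ltf 0.70, that between Ngp and Ltf 1.05, and that between S100a8 and Prtn3 6.09. Among genes outside the set, the 6 closest to S100a8 by this distance were Cmpk2 (0.81), Iigp1 (0.82), Il1b (1.02), Il1rn (1.12), Usp18 (1.12) and Ptges (1.27). All of these were therefore farther from S100a8 than S100a9 was, but nearer than any other tested member, of which Lcn2 (1.57) was closest. Mmp8 lay at 3.15. The course of S100a8 was thus not particular to the set. The differences of these 6 genes ran from 4.48 to 6.78 with poly IC and from -1.83 to -1.23 with ethanol, all called. The ethanol call of Il1b was lost without poly IC pool 1 (-1.03) and with eBayes without the trend (adjusted p = 0.0726). The 6 closest to Prtn3 were Wipf1 (0.093), AW549877 (0.165), Gtf2i (0.172), Rab24 (0.180), Gpsm3 (0.180) and Anp32a (0.198). Wipf1, which binds an actin regulator, followed Prtn3 with 12618 on the naive array, 4361 and 3717 with poly IC, and 6939 and 5409 in the ethanol pools.

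Other genes of neutrophil granules moved in both directions. Of 14 tested genes on a list of 21, 4 rose and 2 fell with poly IC (median 0.060, against -0.156 for all genes), and none was called with ethanol against poly IC (median -0.045, against 0.075). Hp, haptoglobin, rose from 10290.1 to 23854 and 23431 with poly IC (log2 difference 1.18, SE 0.16, adjusted p = 0.00052) and was 19491 and 15924 with ethanol (-0.42, SE 0.13, adjusted p = 0.0798). Cybb, the catalytic subunit of the phagocyte oxidase, rose by 0.94 (SE 0.20, adjusted p = 0.00596), a call lost with eBayes without the trend (adjusted p = 0.0588). Arg1 (arginase) and Ceacam1 fell by 1.09 (SE 0.30) and 0.80 (SE 0.22) on the log2 scale. Arg1 lost its call without poly IC pool 1 (-1.01), without the filter and with quantile normalization. Ceacam1 lost its call without poly IC pool 2 (-0.64), with median-centred arrays and with eBayes without the trend. Macrophages also express Cybb, Arg1 and the lysozyme gene Lyz2, and Lyz2 was 76774 on the naive array and 73144 to 81816 on the treated arrays.

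Of cytosolic and surface genes of neutrophils, 6 of 12 tested rose with poly IC and 2 fell (median 0.75, list of 22). Fpr2, a formyl peptide receptor that also binds CRAMP, rose from 1769 to 23372 and 24524 (log2 difference 3.58, SE 0.17, adjusted p = 2.74e-07), and was 22150 and 18312 with ethanol (-0.25, SE 0.14, adjusted p = 0.306). Il1r2, a decoy receptor of interleukin-1, rose by 3.00 (SE 0.29) and Clec4d, a C-type lectin, by 1.68 (SE 0.17). With ethanol 1 of the 12 fell and 1 rose (median -0.13). The fall was Csf3r, the receptor of granulocyte colony-stimulating factor, at 17440 and 17333 with poly IC and 11354 and 8151 in the ethanol pools (-0.84, SE 0.17, adjusted p = 0.0134). Its call was lost without either poly IC pool (-0.83 and -0.84) and with eBayes without the trend (adjusted p = 0.0906). The granulocyte surface marker Ly6g, named after its values were seen, was 87 on the naive array, 1616 and 832 with poly IC, and 487 and 582 in the ethanol pools, at least 4.05-fold higher with poly IC (adjusted p = 0.00673) and not called with ethanol (-0.86, SE 0.37, adjusted p = 0.180). The chemokine receptor gene Cxcr2, also named after its values were seen, was 68 on the naive array, 1174 and 1392 with poly IC, and 626 and 472 in the ethanol pools (-0.94, SE 0.33, adjusted p = 0.101). The 2 genes of this list that fell with poly IC, also named after their values were seen, were Selplg, a ligand of selectins (-0.93, SE 0.14), and Ltb4r1, a leukotriene receptor (-0.92, SE 0.22). Selplg was 45774 on the naive array, 25474 and 22425 with poly IC, and 39009 and 35176 in the ethanol pools, and was the gene that rose with ethanol (0.63, SE 0.12, adjusted p = 0.00982).

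Of the S100 genes outside the calprotectin pair, none of 7 tested was called higher and 3 fell with poly IC (median -0.26) and none was called with ethanol (median 0.24). S100a10, S100a6 and S100a13 fell by 0.56 (SE 0.13), 0.62 (SE 0.17) and 0.49 (SE 0.14) on the log2 scale. All 3 calls were lost after centring arrays on their medians and with eBayes without the trend. That of S100a6 was also lost without the filter and without poly IC pool 2 (-0.44). That of S100a13 was also lost without either pool (-0.50 and -0.48) and with the mean of its probe sets. With the mean of its probe sets, S100a10 differed by -0.13 (adjusted p = 0.617).

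Among inhibitors and receptors of the member proteins, 3 of 9 tested rose and 3 fell with poly IC (median -0.54), and 1 rose and 1 fell with ethanol (median 0.23). Timp1, an inhibitor of Mmp8 and Mmp9, was 1769 on the naive array, 15368 and 17390 with poly IC, and 6245 and 9684 in the ethanol pools, a rise of 3.04 (SE 0.25, adjusted p = 1.27e-05) and a fall of 1.05 on the log2 scale (SE 0.20, adjusted p = 0.0115). Timp2 went the other way, 6820.0 on the naive array, 3601 and 3368 with poly IC, and 6164 and 5471 in the ethanol pools (-0.92, SE 0.19, and then 0.70, SE 0.16, adjusted p = 0.0221). Without poly IC pool 1 or pool 2 the ethanol differences were -1.13 and -0.96 for Timp1 and 0.74 and 0.65 for Timp2, none of them called. Both ethanol calls were also lost with eBayes without the trend (adjusted p = 0.0823 and 0.0830), and that of Timp2 with median-centred arrays (0.60, adjusted p = 0.0763). Lrp1, a receptor that clears protease complexes, fell with poly IC (-0.75, SE 0.18, adjusted p = 0.0094). Its call was lost without poly IC pool 2 (-0.67), with median-centred arrays and with eBayes without the trend.

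Regulators of granulocyte development divided. With poly IC 7 of 12 tested rose and 3 fell (median 0.67), and with ethanol 1 rose and 4 fell (median -0.16). Cebpd, a C/EBP factor induced by cytokines, was 6759 on the naive array, 53340.3 and 58883 with poly IC, and 31031 and 30667 in the ethanol pools, a rise of 3.01 (SE 0.13, adjusted p = 1.83e-07) and a fall of 0.86 on the log2 scale (SE 0.11, adjusted p = 0.00207), a call lost with eBayes without the trend (adjusted p = 0.0621). Cebpa, the factor that commits precursors to the granulocyte line, was 19680 on the naive array, 3296 and 4406 with poly IC, and 8598 and 6883 in the ethanol pools (-2.29, SE 0.22, then 0.97, SE 0.18, adjusted p = 0.0107), and its ethanol call was lost without poly IC pool 1 (0.77, adjusted p = 0.0933). Id1, an inhibitor of helix-loop-helix factors, fell with ethanol from 2206 and 2809 to 571 and 393 (-1.92, SE 0.24, adjusted p = 0.00182). Csf3, the granulocyte colony-stimulating factor gene, rose with poly IC by 2.29 (SE 0.21, adjusted p = 3.21e-05), with an ethanol difference of -0.45 (SE 0.17, adjusted p = 0.131).

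Genes that recruit neutrophils rose with poly IC in 7 of 11 cases, with 1 fall (median 2.27), and 2 fell with ethanol (median -0.41). Cxcl1, a ligand of Cxcr2, was 11753 on the naive array, 100711 and 102348 with poly IC, and 107216 and 106224 in the ethanol pools (ethanol minus poly IC 0.072, SE 0.086, adjusted p = 0.662). Cxcl2, another such ligand, was 9602 on the naive array, 46994 and 53823 in the poly IC pools, and 54761 and 49581 in the ethanol pools (0.051, SE 0.11, adjusted p = 0.834). After centring arrays on their medians these differences were -0.027 for Cxcl1 and -0.047 for Cxcl2. Icam1, an adhesion ligand on endothelium and macrophages, rose with poly IC by 2.89 (SE 0.17, adjusted p = 1.46e-06), with an ethanol difference of 0.17 (SE 0.14). Ccl3, a chemokine, rose by 4.41 (SE 0.15) and fell with ethanol by 0.57 on the log2 scale (SE 0.13, adjusted p = 0.0211). The ethanol call was lost without either poly IC pool (-0.63 and -0.51), without the filter (adjusted p = 0.0589) and with eBayes without the trend (adjusted p = 0.135).

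**Figure D5:**
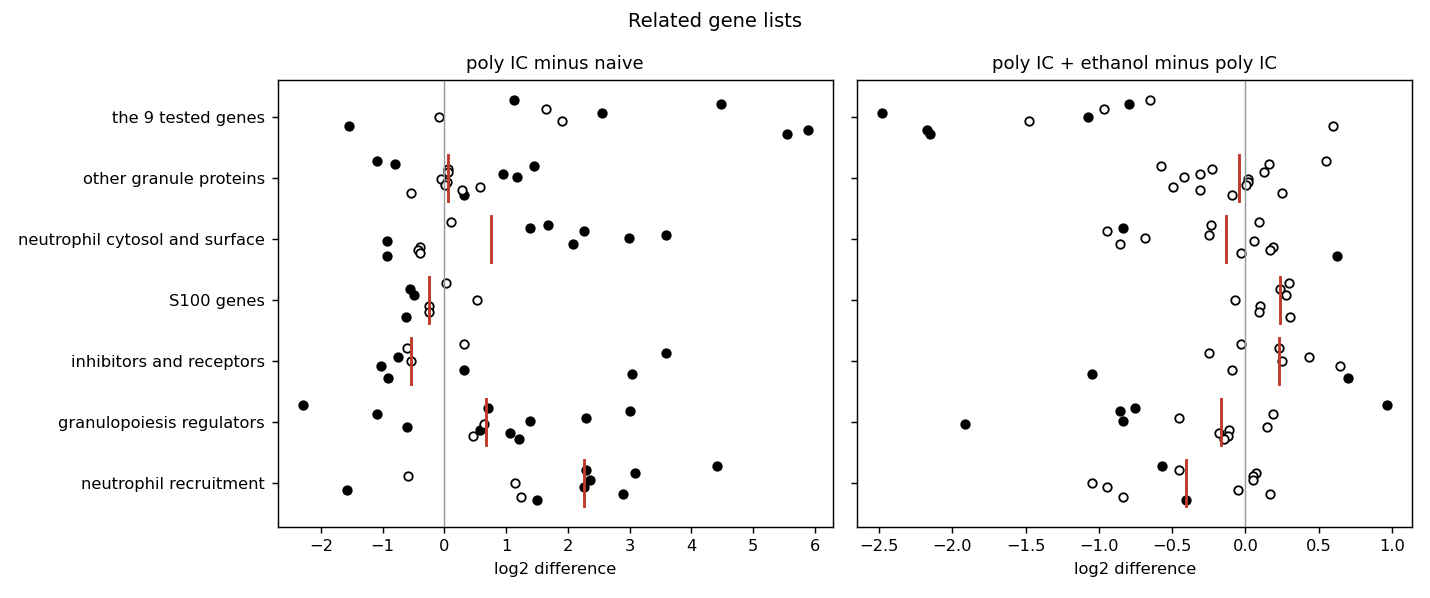
Log2 differences of single genes (points; filled where called) for poly IC minus naive and for poly IC plus ethanol minus poly IC, in the 9 tested members and in 6 related lists, some of which share genes; red bars are the medians of the 6 lists. The recruitment list has the highest median with poly IC, 2.27, and in the second panel the 3 members near or below -2.1 lie to the left of every gene of the 6 lists.

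Markers of other cell types were read on the same arrays. Resident macrophage markers, 12 of 14 on the array, gave summed signals of 282593 on the naive array, 286766 and 304537 with poly IC, and 300385 and 270696 in the ethanol pools, none of their means below the unspiked control. Of these 12, 4 fell and 1 rose with poly IC (median -0.18). The riser was Selp, also on the recruitment list, at 23315 on the naive array, 63457 and 69204 with poly IC, and 54347 and 45732 in the ethanol pools. Its signals are part of the sums, which therefore do not show that the other markers held steady. The pan-macrophage marker Adgre1 was 24872 on the naive array and 19411 to 30801 on the treated ones. Gata6, the factor that marks resident peritoneal macrophages, fell from 7218 to 1169 and 1531 on its brightest probe set (-2.23, adjusted p = 9.38e-05). B cell markers, 11 of 12 on the array, summed to 278795, to 109240.0 and 97962, and to 159512 and 156902 in the same order. All 10 tested B cell markers fell with poly IC (median -1.43) and 5 rose with ethanol (median 0.76). Of 5 erythroid markers on the array, the haemoglobin genes rose and the sum went from 1911 to 18663 and 34298 with poly IC and 20177 and 11439 in the ethanol pools. Most of the treated sums was Hba-a1, at 14514 and 26049 with poly IC. The means of 3 of the 5 lay below the unspiked control with poly IC. Slc4a1, which did not pass the filter, went the other way, from 712 on the naive array to 281 and 171 with poly IC, and was 506 and 788 in the ethanol pools. Of 4 eosinophil markers on the array, Epx and Prg2 had means below the unspiked control in every group and Il5ra in both treated groups, whereas Ccr3 lay above it throughout, at 717 on the naive array and 449.7 to 810.2 on the treated ones. Monocyte markers, 5 of 8 on the array, summed to 30334, to 26968 and 24998, and to 20292 and 21140, with 2 rises and 1 fall with poly IC and 1 fall with ethanol. With poly IC Vcan (2.79) and Chil3 (1.45) rose and Ccr2 fell (-3.37), and with ethanol Vcan fell (-1.61). Immature myeloid and division genes rose in 1 of 6 tested cases with poly IC, the division gene Mki67 (1.88, SE 0.29, adjusted p = 0.000884), and none was called with ethanol. T and NK cell markers, 10 of 13 on the array, summed to 6983 on the naive array and 4641 to 5896 on the treated arrays. Of the 4 tested, Gzma rose (1.27) and Klrd1 fell (-1.12) with poly IC, and none was called with ethanol. Gzma was 462 on the naive array, 1517 and 1414 with poly IC, and 842 and 613 in the ethanol pools. All 9 mast cell markers summed to 22903, to 63972 and 36311, and to 32992 and 29145 in the same order. Of the 6 mast cell markers tested, Hdc, which encodes the enzyme that makes histamine, was the one called, at 2417 on the naive array, 28453 and 25488 with poly IC, and 12709 and 11267 in the ethanol pools. The mast cell protease genes Cma1 (17658 and 4237), Cpa3 (6182 and 1584) and Mcpt1 (1600.2 and 115) differed between poly IC pools 1 and 2 in the same direction as most members. Mcpt2 (345.7 and 342.4) and Mcpt4 (243.9 and 205.4) lay below the unspiked control in these pools and differed less. What part the share of neutrophils, B cells or other cells had in the members' differences was not tested.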

How the data were processed

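The data were 5 Affymetrix MG-U74Av2 arrays of mouse peritoneal macrophage RNA, grouped by sample title. Per the labels, the authors extracted intensities with Microarray Suite 5.0, used Data Mining Tool 3.0, and scaled each array globally to a target of 2500, so that a change in total RNA cannot be seen. Detection calls stayed unused. Gene symbols came from GEO's platform annotation, updated by Entrez ID from a RefSeq table (GRCm38.p6). Of 12488 probe sets, 10833 had 1 symbol, 6675 of these had a mean intensity at or above the 40th percentile (513), and the brightest of each gene was used (5581 genes). log2(signal + 250) was fitted in limma 3.58.1 (R 4.3.3; 3 group means, eBayes with trend, 2 residual and 7.63 prior degrees of freedom), with two-sided p-values adjusted over every gene tested (Benjamini-Hochberg). The naive array was assumed to vary like the others. The fit was run on simulated data with normal noise and, for each gene, the same spread on all 5 arrays. Such data cannot test whether the real arrays vary in that way.

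Folds are ratios of group means, or lower bounds against the brightest of 19 unspiked control probe sets. The labels do not say that a pool number marks shared mice, litter or day, so pools were not treated as paired. Deviations of same-numbered pools correlated at 0.050 over genes, which does not settle the matter for single genes. Named genes were the members and up to 4 called genes of each related list. Those genes had the largest moderated statistic for poly IC against naive or ethanol against poly IC. The 6 profiles nearest to S100a8 and Prtn3 by Euclidean distance over the 5 arrays were named too. All other genes given singly, among them Lyz2, Mpo, Ctsg and the single cell type markers, were picked outside this rule, with their values known. Members and lists were chosen with earlier results of these data known. Alternatives for genes outside the set were added after seeing the data. Figures were drawn with matplotlib 3.10.9. The number of arrays limits the precision of every value.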

Additional observations from a re-analysis of the deposited data

How the results depend on the processing

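The counts of members called were 6 (poly IC against naive), 5 (ethanol against poly IC) and 5 (ethanol against naive). For ethanol against poly IC the count was 3 without the filter, with eBayes without the trend and with the mean of probe sets, and 2 to 5 with 1 array left out. For ethanol against naive it was 3 with eBayes without the trend and 5 with any 1 array left out. For poly IC against naive it was 4 to 8 with 1 array left out, where 1158 to 2367 of all genes were called against 1775, and 5 to 7 otherwise. With the pool number as a replicate block on the 4 treated arrays, 6 members were called for ethanol against poly IC, 5 lower and Prtn3 higher, beside 778 of all genes against 590 without the block; it changed no other member's call. All-gene counts fell by over 1.5 times without the filter (324), with eBayes without the trend (86), and without poly IC pool 1 (203) or pool 2 (139) for ethanol against poly IC, with eBayes without the trend (579) for ethanol against naive, and without poly IC pool 2 (1158) for poly IC against naive; without ethanol pool 1 they rose to 1076 for ethanol against poly IC and 1520 for ethanol against naive. Centring arrays on their medians changed the split for ethanol against poly IC from 322 higher and 268 lower to 165 and 254. For poly IC against naive it changed the split from 654 and 1121 to 664 and 852.

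Signs turned only in values that were not called. The Mmp9 difference between poly IC and naive was 0.080 with quantile normalization and -0.55 to 0.37 with 1 array left out, turning without poly IC pool 2. That of Mmp8 between ethanol and naive was -0.012 with quantile normalization. With ethanol against poly IC, Cxcl1 was -0.027 and Cxcl2 -0.047 on median-centred arrays, and Cxcl2 was -0.047 to 0.15 with 1 array left out, turning without poly IC pool 1 and without ethanol pool 1 (-0.020). Of 1111 single-gene values under an alternative, 984 kept their direction and side of the threshold, 88 lost a call, 32 gained one and 7 turned. The cause was not tested. Signals of Mmp8, Ngp and Elane near or below the unspiked control limit what their differences can show.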
